A study of Mus musculus with 3 samples.

Results

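GABAergic subcortical spots were the 130 spots of each of 3 mouse brain sections in which transcripts of GABA neurons and of GABA-handling astrocytes were most abundant, 390 spots of 10239 with at least 3000 unique molecular identifiers (UMIs). The sections were read with 10x Visium, an array of barcoded spots that captures polyadenylated RNA from the tissue lying on it, so that a spot mixes parts of several cells. Each spot was scored by the sum of ln(1 + counts per 10000 UMIs) over Gad2, an enzyme that makes GABA, Slc32a1, the transporter that loads GABA into synaptic vesicles, Slc6a11, a GABA transporter of astrocytes, and Agt, angiotensinogen, made by astrocytes. The 130 highest scores of each section were kept, which was 3.9% of 3332 spots in O-Ex, 3.72% of 3498 in O-Ctrl and 3.81% of 3409 in Y-Ctrl. O-Ex is a section labelled exercise, and O-Ctrl and Y-Ctrl are sections labelled control. All 3 were 10 µm slices of fresh frozen C57BL/6J brain, with 1 section in each group. The series is about exercise and the aging brain. The labels give neither ages nor what the exercise was, and they do not expand the prefixes O and Y.

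GABA is the main inhibitory transmitter of the brain. It is made from glutamate by the decarboxylases encoded by Gad1 and Gad2, packed into vesicles by the Slc32a1 product, sensed by chloride-conducting GABA-A receptors and by slower GABA-B receptors, and cleared by transporters on neurons and astrocytes. Below the cortex, GABA neurons make up most of the reticular thalamic nucleus, the zona incerta and the pallidum, and they are mixed with peptide neurons in the hypothalamus. The peptide or calcium-binding protein that such a neuron makes differs between these nuclei.

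The label was checked on genes that took no part in the score. Gad1, the other GABA-making decarboxylase, was at 647 CPM in O-Ex, 631 in O-Ctrl and 806 in Y-Ctrl, against 208, 198 and 166 CPM in the remaining spots of the same sections. CPM are counts per 1000000 UMIs of the summed spots, with the 4 score genes left out of the total. At an equal depth of 3000 UMIs, Gad1 was seen in 76.2% of the spots in O-Ex, 60.8% in O-Ctrl and 60.8% in Y-Ctrl, and in 35.1%, 32.3% and 27.2% of the remaining spots. Without thinning, 120, 115 and 117 of the 130 spots held at least 1 Gad1 UMI. Slc17a7, the vesicular glutamate transporter of cortex and hippocampus, was far below the remaining spots, at 34.0 CPM in O-Ex, 15.8 in O-Ctrl and 34.3 in Y-Ctrl against 477, 448 and 420.2 CPM. Slc17a6, its counterpart in thalamus and hypothalamus, was not low, at 96.1 CPM in O-Ex, 62.5 in O-Ctrl and 111 in Y-Ctrl against 85.4, 86.0 and 122 CPM, so the spots also covered glutamate neurons. Because the spots were chosen from these counts, these differences describe the choice and were not tested.

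Genes of particular subcortical nuclei led the list of those most abundant in the spots relative to the rest of each section. The 3 sections' mean log2 ratio, taken on CPM plus 5, was 3.06 ± 0.15 for Pmch, the precursor of melanin-concentrating hormone made in the lateral hypothalamus, 2.47 ± 0.30 for the noncoding RNA Lhx1os and 2.11 ± 0.19 for Pnoc, the nociceptin precursor (SD, n = 3 sections). Aqp4, the water channel of astrocyte endfeet, stood at 1.52 ± 0.39 (SD, n = 3 sections), beside an astrocyte gene pair in the score. The 3 sections are 1 of each group, so these SDs are not a spread of replicates. A small SD of the ratio also does not mean equal levels, since Pmch was at 62.6 CPM in O-Ex, 161 in O-Ctrl and 1879.9 in Y-Ctrl. For Six3, a transcription factor of reticular thalamic neurons, the mean of 2.22 had an SD of 0.97. Trh, the precursor of thyrotropin-releasing hormone, had a mean of 2.10 over sections that differed widely. In O-Ex the log2 ratio of Trh was -0.19, while it was 2.96 in O-Ctrl and 3.52 in Y-Ctrl. Markers of septum, pallidum and bed nucleus were scarce. None of the 13 reached a mean of 20 CPM in any comparison, and their summed level was 66.8, 75.2 and 67.0 CPM in O-Ex, O-Ctrl and Y-Ctrl.

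Depth in the spots was close between sections. They held 1678766 UMIs in O-Ex, 1650600 in O-Ctrl and 1899280 in Y-Ctrl, with a median per spot of 12314, 13173.5 and 14037.5 UMIs and of 3830.5, 3908 and 4044.5 genes. Mitochondrially encoded genes took 17.5%, 18.5% and 17.9% of UMIs. All 3 sections use the same 4992 array barcodes, and 3 chosen barcodes were shared by O-Ex and O-Ctrl, 12 by O-Ctrl and Y-Ctrl, 21 by O-Ex and Y-Ctrl and none by all 3. The lowest score kept was 5.02, 4.95 and 4.34 in O-Ex, O-Ctrl and Y-Ctrl, and the highest score not kept was 5.02, 4.95 and 4.33, so no gap separated the chosen spots from the next ones. All 4 score genes were seen together in 111, 112 and 105 spots. Of the 130 spots per section, 70, 65 and 59 were also chosen when Gad2 and Slc32a1 alone made the score, and 37, 39 and 42 when Slc6a11 and Agt alone did. The score of Y-Ctrl was lower throughout. Agt, which is part of the score, was at 474.2, 462 and 322 CPM of all UMIs in O-Ex, O-Ctrl and Y-Ctrl, and Slc32a1 at 289.5, 269 and 179.5. In the same order, Gad2 was at 542.7, 551.3 and 475.4 CPM. Slc6a11 went the other way, at 263.9, 283.5 and 292.7 CPM, highest in Y-Ctrl.

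The 390 spots were not of 1 kind. Clustering divided them into 7 clusters, which are called here by their leading genes and not by a cell type. Cluster 1 was marked by Trf, Cnp and Mog, genes of myelin-making cells that were among its leading ones, and held 30, 24 and 26 spots of O-Ex, O-Ctrl and Y-Ctrl. Cluster 2, led by Ctxn3, the neurofilament genes Nefm and Nefh, and Syt2, a calcium sensor of fast transmitter release, held 37, 21 and 12. Cluster 3 was led by haemoglobin genes with Myoc, Tmem212 and Ccdc153, genes seen along ventricle walls, and held 21, 22 and 26. Cluster 4, with 18, 21 and 26 spots, was led by Pmch, Hcrt, the orexin precursor of the lateral hypothalamus, and Ctla2a. Cluster 5, led by Avp, Fcer1g, Gal and Cbln2, held 24, 26 and 8. Avp had 0 counts in the O-Ex spots, and Gal in cluster 5 had 0 counts in O-Ex, 31 in O-Ctrl and 1 in Y-Ctrl. Values were scaled within sections for clustering, so the spots of a cluster need not share the level of its leading genes.

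The last 2 clusters held no spot of O-Ex. Cluster 6 was led by Trh, Pvalb, Ramp3 and Six3 and held 11 spots of O-Ctrl and 21 of Y-Ctrl. Its Gad1 level was 1615 CPM in O-Ctrl and 3019 CPM in Y-Ctrl, the highest of any cluster in both sections. Cluster 7 was led by Cartpt, Gda and Tac1 and held 5 spots of O-Ctrl and 11 of Y-Ctrl. With 1 section per group, the level at which the brain was cut, the animal and the condition cannot be told apart. The clusters were made from the same counts as the ratios, so their sizes are a description. A ratio with equal weight per cluster is therefore printed beside many of the pooled ratios below. It averages CPM over the clusters that hold at least 15 spots in both sections, which are clusters 1 to 5 for O-Ex over O-Ctrl and clusters 1, 3 and 4 for O-Ctrl over Y-Ctrl.

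**Figure D1:**
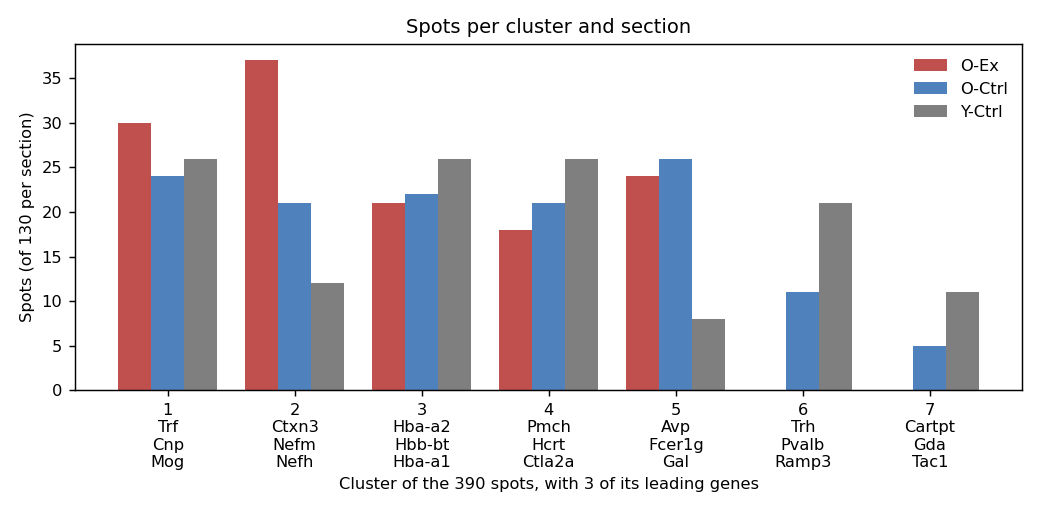
Number of spots (vertical axis, of 130 per section) in each of the 7 clusters of the 390 GABAergic subcortical spots, by section; 3 of the leading genes of a cluster stand under its number. Clusters 6 and 7 hold 11 and 5 spots of O-Ctrl, 21 and 11 of Y-Ctrl and none of O-Ex.

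In O-Ex over O-Ctrl, 171 of the 6382 genes that reached a mean of 20 CPM lay 1.5-fold or more higher in the pooled spots, which is 2.68%, and 51 were at least 1.5-fold lower, 0.799%. With trimmed-mean (TMM) scaling in place of scaling to all UMIs, the split was 99 higher and 89 lower. With equal weight per cluster, 198 of 6354 genes were higher, 3.12%, and 53 lower, 0.834%. In O-Ctrl over Y-Ctrl, 123 of 6296 genes were at least 1.5-fold higher, 1.95%, and 124 lower, 1.97%. With equal weight per cluster these were 270 of 6299, 4.29%, and 279, 4.43%. Over all genes counted, the median log2 ratio was 0.05 in O-Ex over O-Ctrl and -0.02 in O-Ctrl over Y-Ctrl. In the remaining spots, which hold far more UMIs, 0.611% and 0.0764% of genes were higher and lower in O-Ex over O-Ctrl, and 0.296% and 0.265% in O-Ctrl over Y-Ctrl. No test is possible with 1 section per group. The intervals below are exact 95% Poisson intervals, which cover counting error alone and neither animals nor sections. Of the genes past 1.5-fold, the intervals of the 2 sections did not overlap for 91 of 171 higher and 36 of 51 lower genes in O-Ex over O-Ctrl, and for 85 of 123 and 81 of 124 in O-Ctrl over Y-Ctrl. These genes were chosen by the size of their ratio on the same counts, so the shares describe that choice. The share over all counted genes is not given. Both comparisons use O-Ctrl, so a gene that is low in O-Ctrl for any reason is high in O-Ex over O-Ctrl and low in O-Ctrl over Y-Ctrl. As everywhere in bulk values, fewer cells of a type and less RNA per cell cannot be told apart.

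In the pooled spots, the 8 measured genes for GABA synthesis, breakdown, uptake and precursor supply lay within 1.5-fold of O-Ctrl in both other sections. Their median log2 ratio was 0.04 in O-Ex over O-Ctrl and 0.18 in O-Ctrl over Y-Ctrl. With equal weight per cluster, 1 of the 8 was at least 1.5-fold higher in O-Ctrl than in Y-Ctrl, where 4.29% of all genes were. Abat, the transaminase that breaks GABA down, was at 249 CPM in O-Ex, 277 in O-Ctrl and 267 in Y-Ctrl, and Aldh5a1, which removes its product, at 66.2 CPM in O-Ex, 64.9 in O-Ctrl and 63.8 in Y-Ctrl. Slc38a2, an amino acid transporter that also carries glutamine, was at 97.8 CPM in O-Ex, 84.3 in O-Ctrl and 59.6 in Y-Ctrl, and Glul, the glutamine synthetase of astrocytes, at 572 CPM in O-Ex, 556 in O-Ctrl and 416 in Y-Ctrl. The 3 sections stood within counting error of each other for Aldh5a1, and both O sections were above Y-Ctrl for Glul and Slc38a2.

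Gad1 was the member whose reading depended on the spots compared. The pooled log2 ratio of O-Ctrl over Y-Ctrl was -0.35, and with equal weight per cluster it was 0.51. The pooled value of Y-Ctrl drew on cluster 6, where 21 of its spots held 1008 of its 1529 Gad1 counts, while 11 spots of O-Ctrl held 310 of 1040. In cluster 4, Gad1 was at 476.1 CPM in O-Ex, 448 in O-Ctrl and 215 in Y-Ctrl, and in cluster 1 at 480.2, 399.6 and 384. Between O-Ex and O-Ctrl the ratios were 0.04 and 0.23.

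Transcription factors of forebrain GABA lineages were mostly too low to compare. Of 19 members, 4 entered the counts in each comparison. Six3 was at 11.9 CPM in O-Ex, 49.1 in O-Ctrl and 61.2 in Y-Ctrl, a pooled log2 ratio of -1.68 in O-Ex over O-Ctrl that shrank to -0.25 with equal weight per cluster. Meis2, a homeobox factor of striatal and olfactory GABA neurons, was at 21.5 CPM in O-Ex, 40.7 in O-Ctrl and 28.5 in Y-Ctrl, with log2 ratios of -0.79 and -0.26 in O-Ex over O-Ctrl. Zeb2 and Etv1 lay between 0.09 and 0.20 in that comparison. Lhx8, a factor of pallidal and septal neurons, had no count in the spots of any section, and the Dlx genes, which mark forebrain GABA neurons, were at low levels, with Dlx1 at 2.39 CPM in O-Ex, 7.89 in O-Ctrl and 10.0 in Y-Ctrl.

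No GABA-A receptor subunit was past 1.5-fold in either pooled comparison. Of 9 subunits counted in O-Ex over O-Ctrl, 6 were higher and 3 lower, with a median of 0.09, where 58.6% of all genes were higher. Of 8 in O-Ctrl over Y-Ctrl, 3 were higher and 5 lower, with a median of -0.01, where 46.4% of all genes were higher. Gabrg1, a gamma subunit, was at 38.8 CPM in O-Ex, 55.2 in O-Ctrl and 53.2 in Y-Ctrl, and Gabra3 at 34.0 CPM in O-Ex, 46.1 in O-Ctrl and 41.6 in Y-Ctrl, both lowest in O-Ex.

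Of 9 counted genes for GABA-B receptors and the inhibitory postsynapse, 8 were higher in O-Ex than in O-Ctrl, none by 1.5-fold, with a median log2 ratio of 0.18, where 58.6% of all genes were higher. Slc12a5, the chloride extruder that keeps GABA inhibitory, was at 279 CPM in O-Ex, 226 in O-Ctrl and 218 in Y-Ctrl. Gphn, encoding the scaffold gephyrin, was at 44.7 CPM in O-Ex, 34.6 in O-Ctrl and 51.7 in Y-Ctrl, and Nlgn2, the neuroligin of inhibitory synapses, at 47.1 CPM in O-Ex, 32.2 in O-Ctrl and 45.3 in Y-Ctrl. For Gphn and Nlgn2, O-Ctrl was the lowest section and O-Ex and Y-Ctrl were close together. In O-Ctrl over Y-Ctrl, 7 of the 9 were lower, none by 1.5-fold, where 46.4% of all genes were higher. Among the receptors for glycine, the other fast inhibitory transmitter, Glra2 was at 25.7 CPM in O-Ex, 17.6 in O-Ctrl and 27.4 in Y-Ctrl and Glra3 at 23.3 CPM in O-Ex, 17.0 in O-Ctrl and 27.9 in Y-Ctrl, again lowest in O-Ctrl, from 28 to 53 counts per section.

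Several peptide genes differed many-fold between the sections. In O-Ex over O-Ctrl, 2 of the 11 counted members, Penk and Nts, were at least 1.5-fold higher and 5, Trh, Cartpt, Sst, Npy and Pvalb, at least 1.5-fold lower, where 2.68% and 0.799% of all genes were. The median log2 ratio was -0.51 pooled and -0.07 with equal weight per cluster. The call of Nts rests on 43 counts in O-Ex and 25 in O-Ctrl, and its log2 ratio of 0.60 became -0.58 with Gad2 and Slc32a1 alone, -0.17 with Slc6a11 and Agt alone and -0.002 with 65 spots per section. In O-Ctrl over Y-Ctrl, 3 of 13 were higher, Tac1, Cartpt and Pnoc, and 5 lower, Nts, Tac2, Penk, Sst and Pvalb, where 1.95% and 1.97% of all genes were. The medians were -0.25 pooled and -0.29 with equal weight per cluster. With equal weight per cluster, Cartpt, Tac1 and Pvalb changed direction, to -0.71, -0.01 and 1.36, and 88 of the 156 Tac1 counts of O-Ctrl were in the 5 spots of cluster 7. The values by gene are in the plot of GABA neuron and peptide genes.

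**Figure D2:**
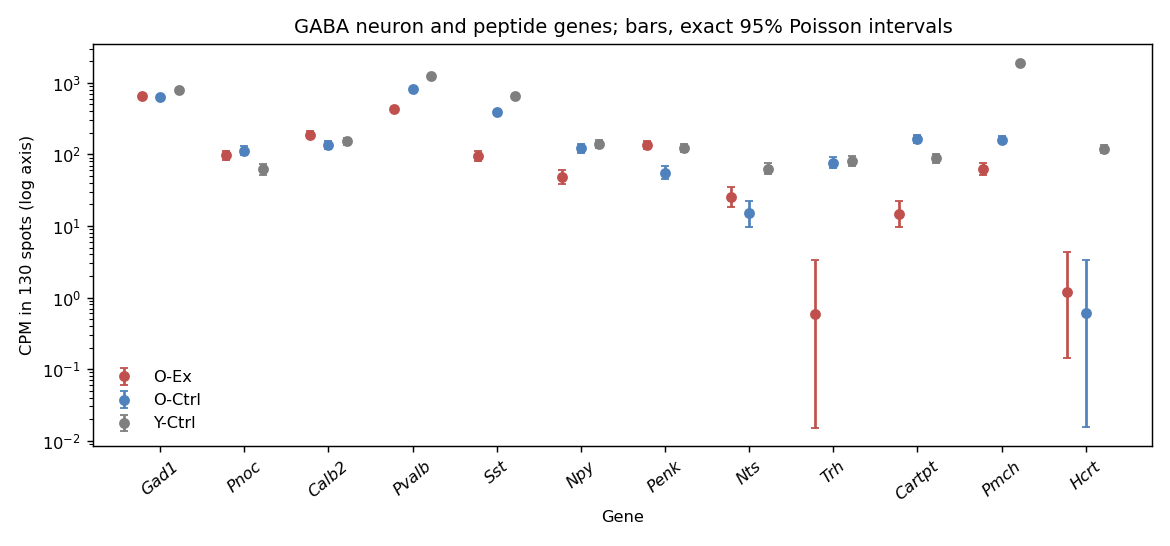
Level of 12 genes in the 130 GABAergic subcortical spots of each section, in CPM on a log axis, with exact 95% Poisson intervals as bars. Trh stands at 0.60 CPM in O-Ex, 76.5 in O-Ctrl and 82.2 in Y-Ctrl, Hcrt is high in Y-Ctrl alone, and Penk is lowest in O-Ctrl.

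Trh was nearly absent from the O-Ex spots. It had 1 count in O-Ex, 126 in O-Ctrl and 156 in Y-Ctrl, that is 0.597 CPM in O-Ex, 76.5 in O-Ctrl and 82.2 in Y-Ctrl. O-Ex was 128-fold below O-Ctrl by the ratio of counts, with a 95% counting interval of 22.6 to 5100. Trh lies on chromosome 6 from 92242061 to 92244650 on the minus strand (mm10). Of the 126 counts of O-Ctrl, 110 were in cluster 6, and of the 156 of Y-Ctrl, 131 were, so most counts came from a cluster that O-Ex lacks. The log2 ratio of Trh in O-Ex over O-Ctrl was -3.86 pooled and -1.54 with equal weight per cluster, where cluster 6 is left out. Over the whole section, no O-Ex spot with at least 3000 UMIs held 5 or more Trh UMIs, against 21 spots in O-Ctrl and 21 in Y-Ctrl. The gene was not absent from the O-Ex section, which held 70 Trh counts against 430 in O-Ctrl and 311 in Y-Ctrl, and the remaining spots were at 1.38, 5.49 and 2.62 CPM, a log2 ratio of -0.72 in O-Ex over O-Ctrl. In cluster 4, which all sections share, Trh had 1 count in O-Ex, 7 in O-Ctrl and 11 in Y-Ctrl.

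The other leading genes of cluster 6 followed it. Pvalb, the calcium-binding protein of fast-spiking GABA neurons, was at 434 CPM in O-Ex, 809 in O-Ctrl and 1255 in Y-Ctrl. Its log2 ratio in O-Ex over O-Ctrl was -0.89 pooled and -0.20 with equal weight per cluster. In O-Ctrl over Y-Ctrl it was -0.63 pooled but 1.36 with equal weight per cluster, a change of direction. Within cluster 2, Pvalb was at 1154, 1067 and 881 CPM in O-Ex, O-Ctrl and Y-Ctrl. Ramp3, a receptor-modifying protein, was at 22.7 CPM in O-Ex, 73.4 in O-Ctrl and 132 in Y-Ctrl and Hs3st4, a heparan sulfate sulfotransferase, at 11.9 CPM in O-Ex, 48.5 in O-Ctrl and 70.1 in Y-Ctrl. Their ratios in O-Ex over O-Ctrl were -1.50 and -1.66 pooled and -0.15 and -0.57 with equal weight per cluster. Kcnip2, a potassium channel partner, was at 14.9 CPM in O-Ex, 46.1 in O-Ctrl and 48.0 in Y-Ctrl, with a ratio of -1.36 pooled and 0.41 with equal weight per cluster, a change of direction.

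Sst, the somatostatin precursor, was lowest in O-Ex, at 94.3 CPM in O-Ex, 389 in O-Ctrl and 659 in Y-Ctrl. Its log2 ratio in O-Ex over O-Ctrl was -1.99 pooled and -0.91 with equal weight per cluster, but 1.12, a change of direction, when Gad2 and Slc32a1 alone chose the spots. In the remaining spots it was near equal, at 391, 428 and 429 CPM. Npy, neuropeptide Y, was at 48.3 CPM in O-Ex, 121 in O-Ctrl and 139.7 in Y-Ctrl in the spots, with ratios in O-Ex over O-Ctrl of -1.25 pooled and -1.23 with equal weight per cluster. Of the 200 Npy counts of O-Ctrl, 79.5% were in 10 spots, and cluster 4 held 126 of them. With Gad2 and Slc32a1 alone choosing the spots, its ratio was -0.16.

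Penk, the proenkephalin gene, went the other way. It was at 137 CPM in O-Ex (interval 119.5 to 156), 55.8 in O-Ctrl (45.0 to 68.5) and 124 in Y-Ctrl (109 to 141), so O-Ctrl was the low section and the intervals of O-Ex and Y-Ctrl overlapped. The log2 ratio was 1.22 in O-Ex over O-Ctrl and -1.08 in O-Ctrl over Y-Ctrl, and with equal weight per cluster 1.20 and -1.30. In each of clusters 1 to 5, Penk was higher in O-Ex than in O-Ctrl, with 306 against 118.1 CPM in cluster 5 and 151.7 against 70.2 CPM in cluster 3. The remaining spots ran the other way, at 52.1, 119 and 102 CPM, a log2 ratio of -1.11 in O-Ex over O-Ctrl. When Gad2 and Slc32a1 alone chose the spots, the ratio in O-Ex over O-Ctrl was 0.31, and with Slc6a11 and Agt alone it was 0.14. Penk lies on chromosome 4 from 4133531 to 4138819 on the minus strand (mm10).

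The remaining peptide genes differed between sections in no shared order. Cartpt, the CART precursor, was at 14.9 CPM in O-Ex, 163 in O-Ctrl and 88.6 in Y-Ctrl, but 199 of its 269 counts in O-Ctrl came from the 5 spots of that section in cluster 7. Its ratio of -3.08 in O-Ex over O-Ctrl became -1.42 with equal weight per cluster, and 0.01 with 65 spots per section. Tac1, the substance P precursor, was at 67.4 CPM in O-Ex, 94.7 in O-Ctrl and 49.6 in Y-Ctrl, and Pnoc at 96.7 CPM in O-Ex, 113 in O-Ctrl and 62.2 in Y-Ctrl. Pnoc was higher in both O sections than in Y-Ctrl, with a log2 ratio in O-Ctrl over Y-Ctrl of 0.82 pooled and 0.92 with equal weight per cluster. Nts, the neurotensin precursor, was at 25.7 CPM in O-Ex, 15.2 in O-Ctrl and 63.3 in Y-Ctrl, from 43, 25 and 120 counts, and Tac2, the neurokinin B precursor, at 12.5 CPM in O-Ex, 12.1 in O-Ctrl and 38.5 in Y-Ctrl. Calb1 and Calb2, encoding the calcium-binding proteins calbindin and calretinin, were at 48.9 CPM in O-Ex, 71.6 in O-Ctrl and 103 in Y-Ctrl for Calb1 and 189 CPM in O-Ex, 137 in O-Ctrl and 152 in Y-Ctrl for Calb2. Calb1 was lowest in O-Ex and Calb2 highest there.

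**Figure D3:**
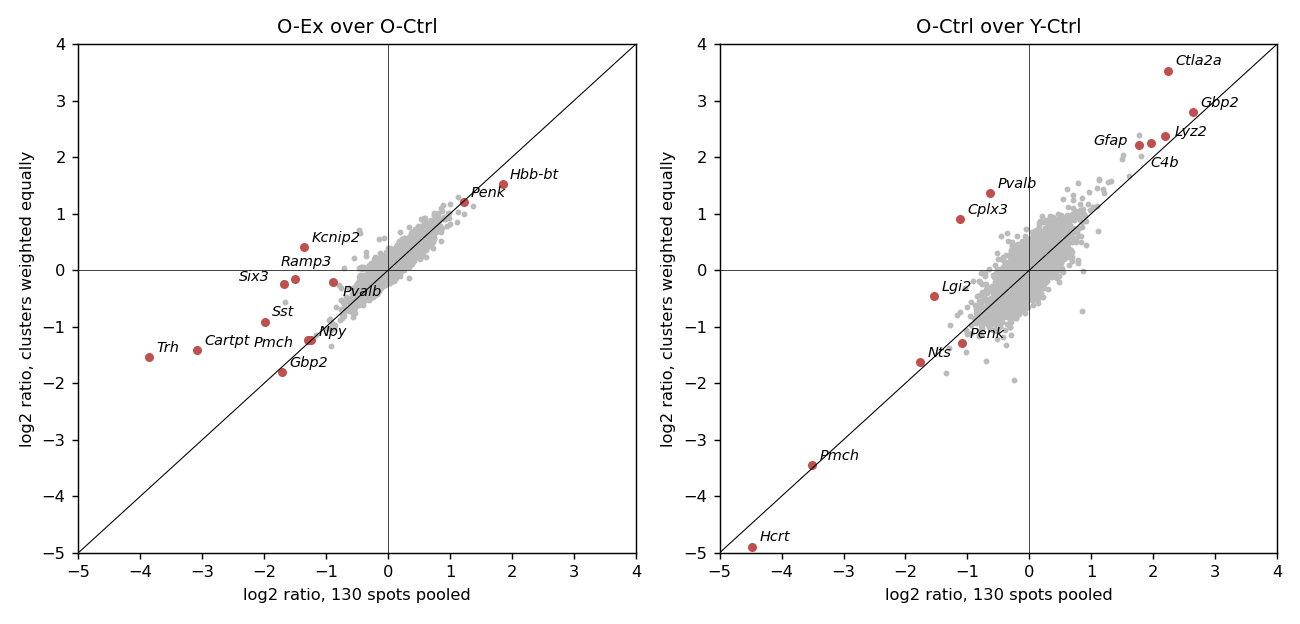
Log2 ratio of each counted gene in the pooled 130 spots (horizontal axis) and with equal weight per cluster (vertical axis), for O-Ex over O-Ctrl (left) and O-Ctrl over Y-Ctrl (right); the diagonal marks equal values. Six3, Ramp3 and Kcnip2 lie far from the diagonal on the left, at 0.41 or less in size on the vertical axis, and Pvalb and Cplx3 change sign on the right, while Penk, Gbp2 and Pmch lie near it.

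A pair of lateral hypothalamic peptide genes, Hcrt and Pmch, stood far higher in Y-Ctrl than in the O sections. Hcrt had 2 counts in O-Ex, 1 in O-Ctrl and 227 in Y-Ctrl, so that O-Ctrl was 197-fold below Y-Ctrl by the ratio of counts, with a 95% counting interval of 35.0 to 7820. Pmch was at 62.6 CPM in O-Ex, 161 in O-Ctrl and 1879.9 in Y-Ctrl, and cluster 4 held 89 of its 105 counts in O-Ex, 223 of 266 in O-Ctrl and 3238 of 3566 in Y-Ctrl. Its log2 ratio in O-Ctrl over Y-Ctrl was -3.50 in the spots and -3.53 in the remaining spots, where the gene was at 4.15, 13.6 and 209.8 CPM. Both genes are made by small groups of lateral hypothalamic neurons, and 92.3% of the Pmch counts of Y-Ctrl were in 10 spots. Of 11 counted hypothalamic genes, 4 were at least 1.5-fold lower in O-Ctrl than in Y-Ctrl and 0 higher, where 1.97% and 1.95% of all genes were. Their median log2 ratio of -0.35 was not kept in other spots: it was 0.29 in the remaining spots and 0.14 when Gad2 and Slc32a1 alone chose the spots. Baiap3, an exocytosis factor, was at 65.03 CPM in O-Ex, 55.8 in O-Ctrl and 92.3 in Y-Ctrl and Hap1, the huntingtin-associated protein abundant in hypothalamus, at 145 CPM in O-Ex, 101 in O-Ctrl and 159.7 in Y-Ctrl. Both were lowest in O-Ctrl. With Gad2 and Slc32a1 alone choosing the spots, the ratios of Baiap3 and Hap1 in O-Ctrl over Y-Ctrl were 0.05 and 0.18 in place of -0.68 and -0.64. Dlk1, an imprinted gene of hypothalamic neurons, was at 33.4 CPM in O-Ex, 17.0 in O-Ctrl and 49.0 in Y-Ctrl. Cut level and group cannot be told apart here.

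Other neuronal genes lower in O-Ctrl than in Y-Ctrl were of 2 kinds. Mef2c, a transcription factor of neurons, was at 18.5 CPM in O-Ex, 12.7 in O-Ctrl and 38.0 in Y-Ctrl, Necab1, a neuronal calcium-binding protein, at 34.6 CPM in O-Ex, 26.7 in O-Ctrl and 65.9 in Y-Ctrl and Dbpht2 at 13.7 CPM in O-Ex, 11.5 in O-Ctrl and 31.1 in Y-Ctrl, with ratios of -1.28, -1.16 and -1.13 pooled and -0.96, -0.80 and -0.73 with equal weight per cluster. Lgi2, a secreted neuronal protein, AI593442 and Cplx3, a complexin that clamps vesicle release, were leading genes of cluster 6. Lgi2 was at 26.3 CPM in O-Ex, 22.5 in O-Ctrl and 74.9 in Y-Ctrl, AI593442 at 50.1 CPM in O-Ex, 85.0 in O-Ctrl and 180.3 in Y-Ctrl and Cplx3 at 1.79 CPM in O-Ex, 18.2 in O-Ctrl and 45.3 in Y-Ctrl. Their ratios were -1.54, -1.04 and -1.12 pooled and -0.46, -0.33 and 0.91 with equal weight per cluster, where Cplx3 changed direction.

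Glial and immune genes were mostly higher in O-Ctrl than in Y-Ctrl. Of 4 counted reactive astrocyte genes, all 4 were at least 1.5-fold higher in O-Ctrl, as were 4 of 5 complement genes (C1qa, C1qb, C1qc and C4b), 4 of 4 MHC class I genes and 6 of 11 microglia genes, where 1.95% of all genes were. Gfap, the intermediate filament of reactive astrocytes, was at 226 CPM in O-Ex, 257 in O-Ctrl and 72.2 in Y-Ctrl, and its log2 ratio in O-Ctrl over Y-Ctrl was 1.76 pooled and 2.22 with equal weight per cluster. Serpina3n, an acute-phase serine protease inhibitor, was at 72.2 CPM in O-Ex, 65.5 in O-Ctrl and 20.0 in Y-Ctrl, and Vim, encoding vimentin, at 99.0 CPM in O-Ex, 69.8 in O-Ctrl and 41.1 in Y-Ctrl. Both O sections were above Y-Ctrl for all 3 genes. Gbp2, taken up below, was the other counted gene of this list. It was at 9.55 CPM in O-Ex, 42.5 in O-Ctrl and 2.64 in Y-Ctrl, and so more than 1.5-fold lower in O-Ex than in O-Ctrl. Gfap was higher in O-Ctrl than in Y-Ctrl in each of the 7 clusters, with 399.6 against 52.8 CPM in cluster 1 and 749 against 179.6 CPM in cluster 3.

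Complement and microglia genes showed the same order of sections. C4b, a complement component made by glia, was at 115 CPM in O-Ex, 115 in O-Ctrl and 25.8 in Y-Ctrl, a log2 ratio of 1.96 in O-Ctrl over Y-Ctrl and of 0.00 in O-Ex over O-Ctrl. C1qa, a chain of the starting complement complex made by microglia, was at 146 CPM in O-Ex, 146 in O-Ctrl and 48.0 in Y-Ctrl and C1qb at 151 CPM in O-Ex, 146 in O-Ctrl and 60.1 in Y-Ctrl. Tyrobp, the adaptor of the receptor Trem2, was at 111 CPM in O-Ex, 125 in O-Ctrl and 49.0 in Y-Ctrl, and Lyz2, a lysozyme of myeloid cells, at 59.1 CPM in O-Ex, 49.1 in O-Ctrl and 6.85 in Y-Ctrl. P2ry12, a purine receptor of resting microglia, was the member that was lower, at 20.9 CPM in O-Ex, 16.4 in O-Ctrl and 31.6 in Y-Ctrl. The median of the 5 complement genes was 1.21 and that of the 11 microglia genes 0.66. In O-Ex over O-Ctrl these medians were 0.03 and 0.01, and no complement or microglia gene was past 1.5-fold.

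The 4 counted MHC class I genes were likewise above Y-Ctrl in O-Ctrl, while H2-T23, too low to count, was at 15.5 CPM in O-Ex, 10.3 in O-Ctrl and 13.2 in Y-Ctrl. B2m, the light chain of class I molecules, was at 319 CPM in O-Ex, 339 in O-Ctrl and 156 in Y-Ctrl, H2-K1 at 74.0 CPM in O-Ex, 62.5 in O-Ctrl and 32.7 in Y-Ctrl and H2-D1 at 87.1 CPM in O-Ex, 79.5 in O-Ctrl and 50.6 in Y-Ctrl, and the reads of these related heavy chains may be split between them. Of 17 lysosomal genes, 16 were higher in O-Ctrl than in Y-Ctrl, 2 of them (Ctsd and Ctsz) by 1.5-fold, where 46.4% and 1.95% of all genes were, with a median of 0.22 in the spots and 0.21 in the remaining spots. Ctsd, cathepsin D, was at 595 CPM in O-Ex, 476 in O-Ctrl and 297 in Y-Ctrl. Apod, a lipid carrier made by oligodendrocytes, was at 817 CPM in O-Ex, 799 in O-Ctrl and 429 in Y-Ctrl, and Mobp, a myelin protein gene, at 891 CPM in O-Ex, 1082 in O-Ctrl and 686 in Y-Ctrl, and the 16 myelin genes had a median of 0.25 in O-Ctrl over Y-Ctrl.

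The makeup of the spots differed in the same direction. The summed level of the 20 astrocyte transport and identity genes was 6547, 6997 and 5963 CPM in O-Ex, O-Ctrl and Y-Ctrl, that of the 20 microglia genes 872, 859 and 511 CPM, and that of the 16 myelin genes 10707, 11376 and 9176 CPM, with every astrocyte and myelin member detected and Cst7 at 0 in Y-Ctrl among the microglia genes. Aqp4 was at 248 CPM in O-Ex, 299 in O-Ctrl and 164 in Y-Ctrl, and Agt, also an astrocyte gene, helped to choose the spots. When Gad2 and Slc32a1 alone chose them, the log2 ratios in O-Ctrl over Y-Ctrl were 0.22 for Aqp4, 1.07 for Gfap, 0.75 for Serpina3n, 0.80 for C1qa, 0.61 for B2m and 1.58 for C4b. In the remaining spots they were 0.07 for Aqp4, 1.23 for Gfap, 1.37 for Serpina3n, 0.74 for C1qa, 0.41 for B2m and 2.26 for C4b. C4b, Gfap, Serpina3n and C1qa were thus past 1.5-fold in all 3 sets of spots. The part of astrocyte content in these results was not tested further.

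**Figure D4:**
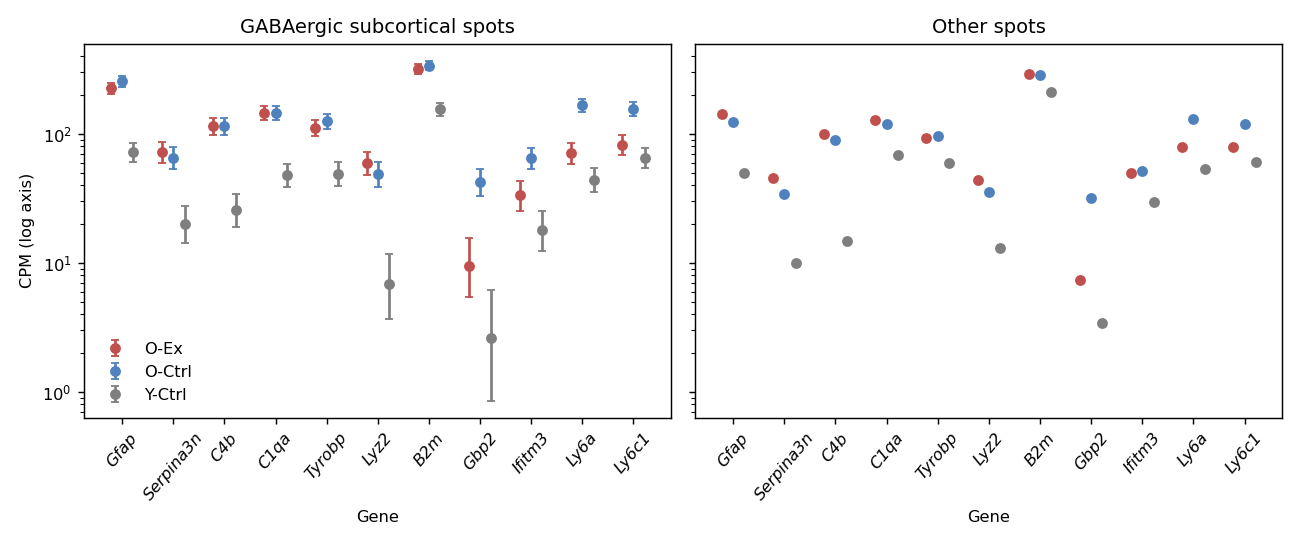
Level of 11 glial, immune and vessel genes in the GABAergic subcortical spots (left, with exact 95% Poisson intervals) and in the remaining spots (right), in CPM on a log axis, by section. O-Ex and O-Ctrl lie close together and above Y-Ctrl for Gfap, Serpina3n, C4b, C1qa, Tyrobp, Lyz2 and B2m, while O-Ctrl lies above both other sections for Gbp2, Ly6a and Ly6c1.

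A small group of interferon-linked and vessel genes was highest in O-Ctrl. Of 25 interferon response genes, 3 were abundant enough to count in O-Ctrl over Y-Ctrl, where 2, Ifitm3 among them, were at least 1.5-fold higher, which 1.95% of all genes were. Of 4 counted in O-Ex over O-Ctrl, 2 were higher and 2 lower, and of these Ifitm3 alone was past 1.5-fold, lower in O-Ex, as 0.799% of all genes were. Ifi27, an interferon-induced gene, was near equal, at 44.7 CPM in O-Ex, 40.7 in O-Ctrl and 41.1 in Y-Ctrl, and Ifit3, another, had 38, 31 and 4 counts in O-Ex, O-Ctrl and Y-Ctrl, so not every member was highest in O-Ctrl. Gbp2, a guanylate-binding protein induced by interferons, was at 9.55 CPM in O-Ex (interval 5.46 to 15.5), 42.5 in O-Ctrl (33.1 to 53.7) and 2.64 in Y-Ctrl (0.856 to 6.15), from 16, 70 and 5 counts. It was counted above with the reactive astrocyte genes and not among these 25. Its log2 ratio was -1.71 in O-Ex over O-Ctrl and 2.64 in O-Ctrl over Y-Ctrl, and -1.58 and 2.12 in the remaining spots. Gbp2 lies on chromosome 3 from 142620602 to 142638008 on the plus strand (mm10). Ly6a, a surface protein of brain endothelium, was at 71.0 CPM in O-Ex, 166 in O-Ctrl and 44.3 in Y-Ctrl and its relative Ly6c1 at 82.3 CPM in O-Ex, 155 in O-Ctrl and 65.4 in Y-Ctrl. Ifitm3, an interferon-induced membrane protein, was at 33.4 CPM in O-Ex, 64.9 in O-Ctrl and 17.9 in Y-Ctrl, with a log2 ratio in O-Ex over O-Ctrl of -0.86 in the spots and -0.05 outside them, and Psmb8, an immunoproteasome subunit, at 12.5 CPM in O-Ex, 27.9 in O-Ctrl and 5.27 in Y-Ctrl. Among other endothelial markers, Cldn5, a tight junction protein, was at 48.9 CPM in O-Ex, 54.0 in O-Ctrl and 42.7 in Y-Ctrl and Itm2a at 62.6 CPM in O-Ex, 65.5 in O-Ctrl and 61.7 in Y-Ctrl. Of 11 counted endothelial and mural genes, all 11 were higher in O-Ctrl than in Y-Ctrl, 4 by 1.5-fold, where 46.4% and 1.95% of all genes were. Their median log2 ratio was 0.39, against 0.02 in the remaining spots, and -0.058 when Slc6a11 and Agt alone chose the spots. Of 12 counted in O-Ex over O-Ctrl, 2, Ly6a and Ly6c1, were at least 1.5-fold lower and 1, the smooth muscle actin Acta2, higher, where 0.799% and 2.68% of all genes were. The counts were 4 lower and 0 higher with equal weight per cluster. The median was -0.10 in the spots and 0.21 in the remaining spots.

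Ctla2a, a cysteine protease inhibitor with a near-identical neighbour in Ctla2b that can share its reads, was at 113 CPM in O-Ex, 60.7 in O-Ctrl and 8.96 in Y-Ctrl. Its counts sat in few spots, with 89.9%, 87.0% and 76.5% of those in O-Ex, O-Ctrl and Y-Ctrl in 10 spots, and the remaining spots were at 21.4, 11.9 and 13.3 CPM. Myoc, a secreted protein of ventricle wall and meninges, was at 32.2 CPM in O-Ex, 65.5 in O-Ctrl and 15.8 in Y-Ctrl, and cluster 3 held 51 of 54, 88 of 108 and 28 of 30 of its counts. Gm42418, a gene model on chromosome 17 whose reads can come from ribosomal RNA, was at 3101 CPM in O-Ex, 3923 in O-Ctrl and 1569 in Y-Ctrl, and its difference is uncertain for that reason.

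In O-Ex over O-Ctrl, most of the higher genes named by rule after Penk had few counts in O-Ctrl, with Eef1a2 as an exception. Slc6a7, a proline transporter of neurons, was at 29.8 CPM in O-Ex, 10.9 in O-Ctrl and 29.0 in Y-Ctrl and Cenpv at 34.0 CPM in O-Ex, 12.1 in O-Ctrl and 24.8 in Y-Ctrl. For both, and for Ephb6, Gripap1, Spata2 and Sema5a, Y-Ctrl lay nearer to O-Ex or between the sections, with Gripap1, an AMPA receptor trafficking protein, at 44.1 CPM in O-Ex, 20.0 in O-Ctrl and 27.4 in Y-Ctrl, Sema5a, a guidance molecule, at 37.0 CPM in O-Ex, 16.4 in O-Ctrl and 23.7 in Y-Ctrl, Ephb6, an ephrin receptor without kinase activity, at 29.2 CPM in O-Ex, 12.1 in O-Ctrl and 23.2 in Y-Ctrl, and Spata2 at 28.6 CPM in O-Ex, 12.1 in O-Ctrl and 23.2 in Y-Ctrl. For Dapk3, Kif3a and Cdkn1b the controls were close together and below O-Ex. In O-Ex over O-Ctrl, these genes had log2 ratios of 1.119, 0.998 and 0.948, against 0.955, 0.474 and 0.357 in the remaining spots. Dapk3, a kinase linked to cell death, was at 32.2 CPM in O-Ex, 12.1 in O-Ctrl and 12.1 in Y-Ctrl, Kif3a, a motor of cilia and axons, at 29.2 CPM in O-Ex, 12.1 in O-Ctrl and 11.1 in Y-Ctrl and Cdkn1b, a cell cycle inhibitor, at 29.2 CPM in O-Ex, 12.7 in O-Ctrl and 15.8 in Y-Ctrl. Gm3764, a noncoding gene model, was at 43.6 CPM in O-Ex, 20.6 in O-Ctrl and 24.8 in Y-Ctrl. Eef1a2, the elongation factor of neurons and muscle, was at 232 CPM in O-Ex, 121 in O-Ctrl and 146 in Y-Ctrl, and it was as high relative to O-Ctrl in the remaining spots, with log2 ratios of 0.92 in the spots and 0.92 outside them.

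Genes that stayed lower in O-Ex with equal weight per cluster included Sgk1, Igsf1 and Arl4d. Sgk1, a glucocorticoid-induced kinase, was at 61.5 CPM in O-Ex, 124 in O-Ctrl and 120.2 in Y-Ctrl. Igsf1, a pituitary and hypothalamic membrane protein, was at 23.3 CPM in O-Ex, 51.0 in O-Ctrl and 49.6 in Y-Ctrl. Arl4d, a small GTPase, was at 12.5 CPM in O-Ex, 29.1 in O-Ctrl and 18.5 in Y-Ctrl. Cluster 6 held 10 of the 48 Arl4d counts of O-Ctrl and 17 of the 35 of Y-Ctrl. For Sgk1, Igsf1 and Arl4d, the log2 ratios in O-Ex over O-Ctrl were -0.96, -0.98 and -0.96 pooled. With equal weight per cluster they were -0.89, -1.02 and -1.03. For Igsf1 the ratio was -0.05 when Gad2 and Slc32a1 alone chose the spots.

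Genes of synaptic release and of protein folding were mostly higher in O-Ex than in O-Ctrl by small amounts. Of 20 counted synaptic genes 16 were higher, with a median of 0.21, and of 14 chaperone genes 13 were, with a median of 0.19, where 58.6% of all genes were higher and the median of all genes was 0.05. The chaperone Hspa5 of the endoplasmic reticulum was at 259.5 CPM in O-Ex, 192 in O-Ctrl and 161 in Y-Ctrl, the calcium-binding chaperone Calr at 297 CPM in O-Ex, 218 in O-Ctrl and 217 in Y-Ctrl and Pdia4, a disulfide isomerase, at 27.4 CPM in O-Ex, 12.7 in O-Ctrl and 14.8 in Y-Ctrl. Their log2 ratios of 0.43, 0.44 and 0.87 stood beside 0.60, 0.50 and 0.54 in the remaining spots. Among synaptic genes, the vesicle protein Sv2b was at 64.4 CPM in O-Ex, 38.8 in O-Ctrl and 52.2 in Y-Ctrl, and Shank1, a scaffold of excitatory synapses, was lower in O-Ex, at 37.0 CPM in O-Ex, 64.3 in O-Ctrl and 46.4 in Y-Ctrl. Of 7 genes for neurotrophic and exercise-linked factors, 5 were higher in O-Ex than in O-Ctrl, where 58.6% of all genes were, and 2 by 1.5-fold, where 2.68% were. Their median was 0.24 in the spots and 0.26 in the remaining spots. Vgf, a neuropeptide precursor induced by neurotrophins, was at 177 CPM in O-Ex, 109.8 in O-Ctrl and 120.2 in Y-Ctrl and Vegfa, the vascular growth factor, at 41.2 CPM in O-Ex, 22.5 in O-Ctrl and 25.3 in Y-Ctrl.

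Respiratory chain lists were near 0 in both comparisons. The 25 nuclear genes of the respiratory chain had medians of -0.03 in O-Ex over O-Ctrl and -0.05 in O-Ctrl over Y-Ctrl, and the 12 mitochondrially encoded ones -0.06 and 0.01, with no member past 1.5-fold. The clock genes stood at -0.02 and 0.16. The plot of list medians sets these beside the remaining spots.

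**Figure D5:**
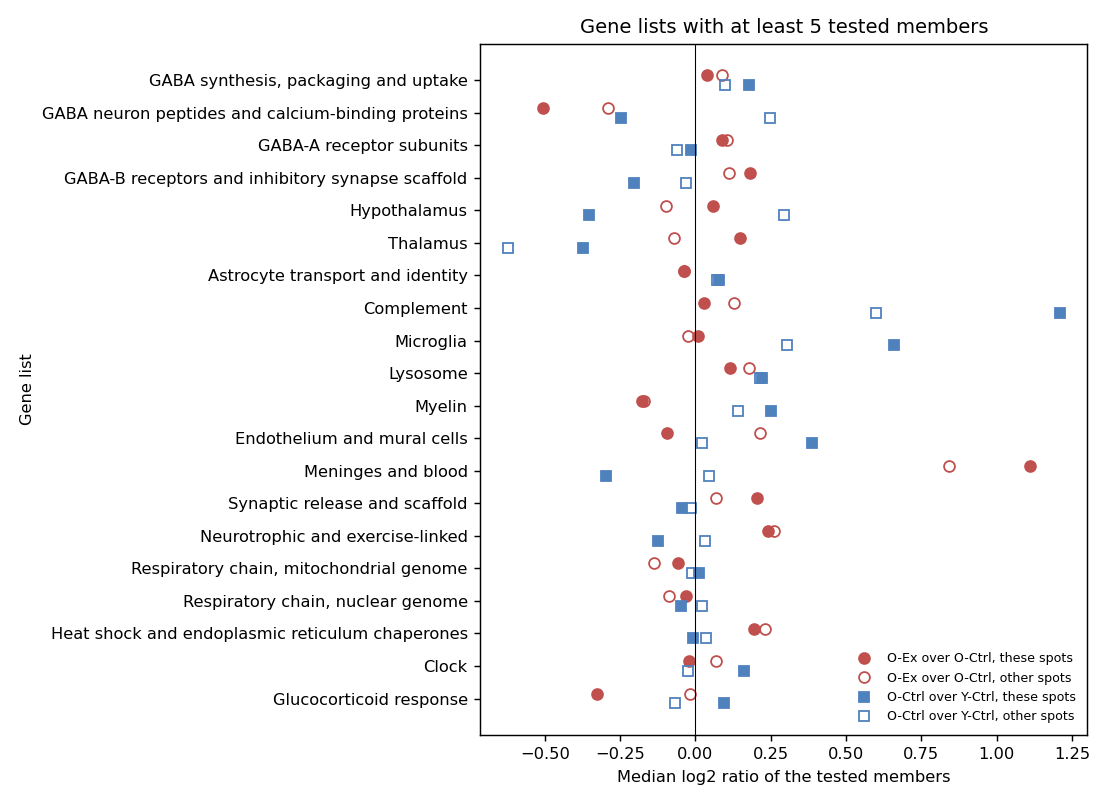
Median log2 ratio (horizontal axis) of gene lists with at least 5 counted members, for O-Ex over O-Ctrl (red circles) and O-Ctrl over Y-Ctrl (blue squares), in the GABAergic subcortical spots (filled) and the remaining spots (open). Complement and microglia lists lie at 1.21 and 0.66 in O-Ctrl over Y-Ctrl and at 0.03 and 0.01 in O-Ex over O-Ctrl.

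Blood content differed between the sections. In O-Ex, all 4 haemoglobin genes lay at least 1.5-fold above O-Ctrl, with Hbb-bs at 1288 CPM in O-Ex, 497 in O-Ctrl and 774 in Y-Ctrl, Hba-a1 at 588 CPM in O-Ex, 269 in O-Ctrl and 303 in Y-Ctrl, Hba-a2 at 492 CPM in O-Ex, 207 in O-Ctrl and 284 in Y-Ctrl and Hbb-bt at 188 CPM in O-Ex, 48.5 in O-Ctrl and 91.2 in Y-Ctrl. Hba-a1 and Hba-a2 are near-identical copies, so their split is uncertain. With 260 spots per section in place of 130, the log2 ratio of Hbb-bs in O-Ex over O-Ctrl was -0.078 in place of 1.36. In the remaining spots Hbb-bs was also highest in O-Ex, at 999, 552 and 586 CPM. Cluster 3 held 1407 of 2158, 298 of 819 and 1306 of 1468 Hbb-bs counts of O-Ex, O-Ctrl and Y-Ctrl. Without cluster 3, 193 of 6354 genes were 1.5-fold or more higher in O-Ex than in O-Ctrl, 3.04%, and 76 lower, 1.2%. In O-Ctrl over Y-Ctrl these were 185 of 6216, 2.98%, and 147, 2.36%. Whether blood content has a part in the other results was not tested.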

How the data were processed

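The files the authors deposited give raw UMI counts, in whole numbers, for each gene and barcode. Space Ranger 2.0.0 wrote them, per the file headers, against the mouse build mm10, per the submitters' processing notes. No normalization was applied in them. The labels give the molecule as nuclear RNA, while their protocol is one for tissue sections. Neither spot positions nor images were used here. Of 31053 gene IDs, 31011 matched GENCODE vM21, which gave the coordinates.

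Spots were chosen as the report states. Counts were summed over spots, scaled to CPM without the 4 score genes, and compared as log2 ratios of CPM + 5. Genes that reached a mean of 20 CPM over the sections compared were counted, at a size of 1.5-fold. With 1 section per group no test was run. The ratio was tested on simulated data. Clusters used scanpy 1.11.5 (1000 variable genes, 20 components, 15 neighbours, Leiden resolution 0.8, igraph 0.11.9), with values scaled within sections. No doublet caller was run, since spots are tissue.

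Named genes were the 12 highest and 12 lowest ratios per comparison with the same sign with 65 and 260 spots and with Gad2 and Slc32a1 alone, members of the GABA lists, and leading members of the other of 33 lists. Members and lists were chosen with earlier results of these data known. The closing section gives 20 alternatives. Some genes are not reported here.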

Additional observations from a re-analysis of the deposited data

How the results depend on the processing

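The numbers of genes past 1.5-fold depended on the spots and settings used, and the cause was not tested. Against 171 higher genes in O-Ex over O-Ctrl, there were 390 with 65 spots per section, 61 with 260 spots per section, 292 with Slc6a11 and Agt alone, 99 with TMM scaling and 257 with a pseudocount of 1 CPM. There were also 28 with a pseudocount of 20 CPM, 327 with a minimum of 10 CPM, 670 with no minimum, 8 at 2-fold and 294 with equal weight over clusters made without scaling within sections. Against 51 lower genes in O-Ex over O-Ctrl, there were 210 with 65 spots per section, 26 with 260 spots per section, 90 with Slc6a11 and Agt alone, 89 with TMM scaling, 90 without mitochondrially encoded genes in the total and 81 with equal weight per spot. There were also 83 with a pseudocount of 1 CPM, 20 with a pseudocount of 20 CPM, 124 with a minimum of 10 CPM, 323 with no minimum, 11 at 2-fold, 94 with equal weight over clusters made without scaling within sections and 93 with the score as a summed share of UMIs. Against 123 higher genes in O-Ctrl over Y-Ctrl, there were 260 with 65 spots per section, 61 with 260 spots per section, 270 with equal weight per cluster and 40 with a pseudocount of 20 CPM. There were also 250 with a minimum of 10 CPM, 555 with no minimum, 20 at 2-fold and 185 without cluster 3. Against 124 lower genes in O-Ctrl over Y-Ctrl, there were 312 with 65 spots per section, 76 with 260 spots per section, 345 with Slc6a11 and Agt alone and 279 with equal weight per cluster. There were also 37 with a pseudocount of 20 CPM, 254 with a minimum of 10 CPM, 515 with no minimum, 15 at 2-fold and 191 with the score as a summed share of UMIs.

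The direction of a log2 ratio or list median changed as follows. With 260 spots per section, O-Ex over O-Ctrl was -0.068 for the meninges and blood list, 0.14 for Sst, -0.21 for Hba-a1, -0.057 for Hba-a2, -0.078 for Hbb-bs and -0.094 for Dlk1. With 260 spots per section, O-Ctrl over Y-Ctrl was 1.00 for the meninges and blood list, 0.90 for Hbb-bs and 1.00 for Hbb-bt. With 65 spots per section, O-Ex over O-Ctrl was 0.18 for the peptide list, 0.010 for Cartpt, -0.002 for Nts and -0.093 for Hbb-bt. With 65 spots per section, O-Ctrl over Y-Ctrl was -1.999 for Cartpt and 0.070 for Slc17a7. With equal weight per cluster, O-Ex over O-Ctrl was 0.039 for AI593442 and 0.41 for Kcnip2. With equal weight per cluster, O-Ctrl over Y-Ctrl was 1.36 for Pvalb, -0.008 for Tac1, -0.71 for Cartpt and 0.91 for Cplx3. With equal weight over clusters made without scaling within sections, O-Ex over O-Ctrl was 0.055 for the peptide list, 0.15 for Meis2, 0.31 for Ramp3, 0.012 for AI593442 and 0.21 for Kcnip2. With equal weight over clusters made without scaling within sections, O-Ctrl over Y-Ctrl was -0.57 for Cartpt. With equal weight per spot, O-Ctrl over Y-Ctrl was 0.065 for the meninges and blood list. With a minimum of 6000 UMIs per spot, O-Ex over O-Ctrl was 0.17 for Pmch. With the score as a summed share of UMIs, O-Ex over O-Ctrl was 0.25 for the peptide list and 0.91 for Sst. With the score as a summed share of UMIs, O-Ctrl over Y-Ctrl was -0.78 for Tac1 and -0.94 for Cartpt. With Gad2 and Slc32a1 alone, O-Ex over O-Ctrl was 1.12 for Sst, -0.58 for Nts and 0.083 for Myoc. With Gad2 and Slc32a1 alone, O-Ctrl over Y-Ctrl was 0.14 for the hypothalamic list, -0.64 for Tac1, 0.053 for Baiap3 and 0.18 for Hap1. With Slc6a11 and Agt alone, O-Ex over O-Ctrl was 0.054 for Pvalb, -0.17 for Nts, -0.12 for Ctla2a, 0.020 for AI593442, 0.087 for Hs3st4, 0.26 for Kcnip2 and -0.13 for Prkcd. With Slc6a11 and Agt alone, O-Ctrl over Y-Ctrl was 0.027 for the peptide list, -0.058 for the vessel list, 0.55 for Sst, 1.01 for Pvalb, 0.027 for Penk, -0.93 for Cartpt, 0.12 for Dlk1 and 0.54 for Cplx3. Without clusters 6 and 7, O-Ex over O-Ctrl was 0.033 for the peptide list, 0.12 for Pvalb, 0.068 for AI593442 and 0.33 for Kcnip2. Without clusters 6 and 7, O-Ctrl over Y-Ctrl was 1.21 for Pvalb, -1.10 for Cartpt and 0.36 for Cplx3. Without cluster 3, O-Ctrl over Y-Ctrl was 1.68 for the meninges and blood list, 1.68 for Hbb-bs and 0.85 for Hbb-bt.

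Of the gene and list values recomputed, 3039 and 627 stayed close to their value above, within the counting error of a gene or 0.1 of a list median, and 384 and 148 moved further with no change of a called direction. TMM scaling and leaving mitochondrially encoded genes out of the total reversed 0 of them. The settings without clusters 6 and 7, without cluster 3, with clusters made without scaling within sections and with a summed share of UMIs were chosen after seeing the data. No paired analysis was possible because each group has 1 section. With 1678766 UMIs in the spots of O-Ex, a gene at 20 CPM rests on few counts, so small differences of such genes were not detectable at this depth.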

Other observations

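Thalamic relay genes were present in the GABAergic subcortical spots. Prkcd, a protein kinase C of thalamic relay neurons, was at 56.7 CPM in O-Ex, 35.2 in O-Ctrl and 64.8 in Y-Ctrl, and Ntng1, a netrin relative of thalamocortical axons, at 52.5 CPM in O-Ex, 30.3 in O-Ctrl and 51.1 in Y-Ctrl. For Prkcd and Ntng1, O-Ctrl was the lowest section in the spots, while Y-Ctrl was the highest in the remaining spots, with Prkcd there at 111, 117 and 192 CPM. The 9 counted thalamic genes had a median log2 ratio of 0.15 in O-Ex over O-Ctrl and -0.37 in O-Ctrl over Y-Ctrl. With equal weight per cluster these medians were 0.00 and -0.02, so the pooled values were not kept. In the remaining spots the medians of the counted thalamic genes were -0.07 and -0.62.

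Of 5 counted glucocorticoid-responsive genes, 4 were lower in O-Ex than in O-Ctrl, where 58.6% of all genes were higher, and Sgk1 was lower by 1.5-fold, as 0.799% of all genes were. The median was -0.33 in the spots and -0.02 in the remaining spots. Avp, the vasopressin precursor, had 0 counts in O-Ex, 33 in O-Ctrl and 29 in Y-Ctrl, which makes O-Ex at least 11.2-fold lower than O-Ctrl when the count of 0 is set to 3. Igkc, an antibody light chain, had 17 counts in O-Ex and 0 in O-Ctrl and Y-Ctrl, at least 5.57-fold higher in O-Ex than in O-Ctrl with the count of 0 set to 3 in the summed spots of O-Ctrl. These genes were picked out after their values were seen.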
